A study of Mus musculus with 6 samples.

Results

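Genes of DNA replication were examined in mouse haematopoietic stem and progenitor cells (HSPCs) with and without the Mediator subunit gene Med12. The genes were chosen by name, as components of the machinery that copies DNA, and every probe set that the array's annotation assigns to exactly 1 of them was used. Of 36 genes listed, 35 were read by 76 probe sets, out of 18193 genes and 45037 probe sets in all. Chaf1a was not matched and was not analysed here, and 1 probe set annotated to both Tyms and its pseudogene Tyms-ps was left out. Below, a gene is read from whichever of its probe sets has the highest mean, and the remaining ones are described afterwards.

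HSPCs were sorted from the bone marrow as lineage-negative cells that carry c-Kit and Sca1, which are stem cells and multipotent progenitors. The groups were HSPC_control, from control mice, and HSPC_Med12 KO, from Med12Flox;MxCre mice, with 3 arrays each, both of B6/129 background and both labelled as taken 4 days after pI:pC. pI:pC mimics viral double-stranded RNA and triggers interferon, which switches on the Mx promoter that drives Cre in any cell type able to respond. The labels give neither the genotype of the controls nor whether they carried Cre, and they name no animal behind any array, so the p-values below reflect the scatter among these arrays, which may be technical.

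Replication starts at origins that are licensed in G1 phase. The origin recognition complex (ORC), with Cdc6 and Cdt1, loads a ring of the MCM proteins 2 to 7 onto DNA, and in S phase Cdc45 and the GINS complex join that ring to make the active helicase. Primase and the replicative polymerases then copy the strands, held on DNA by the sliding clamp Pcna, which the RFC complex loads, while ribonucleotide reductase and thymidylate synthase supply the building blocks. Many of these genes are transcribed under E2F factors at the entry into S phase, so that their RNA is low in resting stem cells and higher in cycling progenitors.

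The deposited signals are linear, and differences were taken on the log2(signal + 16) scale as knockout minus control, which understates those of dim genes. The median signal of an array lay between 26.7 and 26.9 for controls and between 16.6 and 21.3 for knockouts. Med12 itself had signals of 278.6, 837.4 and 441.6 in controls and 89.1, 100.4 and 86.4 in knockouts (log2 difference -2.17; SE 0.38; limma's adjusted p = 0.0796). All 3 knockout signals of Med12 lay below all 3 control signals, and the sources used here do not say whether its single probe set falls within the deletion. The sort marker Kit spanned 805.2 to 1425.4 on control and 514.8 to 617.5 on knockout arrays, and the lineage antigen genes Cd3e, Cd4, Cd8a and Itgam summed to 103.3 to 174.8 and 41.7 to 114.8. The number of arrays limits the precision.

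Most replication genes had somewhat higher signals in Med12 knockouts, but none passed the test. Of 35 genes 29 had a higher and 6 a lower log2 mean, against 42.2% of all genes with a higher one. With limma's test and Benjamini-Hochberg adjustment over all probe sets, 0 of the 35 passed at 0.05 in either direction, where 0.989% of all genes passed, 0.352% as higher and 0.638% as lower. None of the 76 probe sets passed either, against 0.762% of all probe sets. At an unadjusted p under 0.05, 14 of the 35 genes were higher and 1 was lower, against 7.83% and 10.3% of all genes. In 16 genes all 3 knockout signals lay above all 3 control signals and in 1 all lay below, against 9.85% and 13.5% of all genes. The median log2 difference was 0.36 over the 35 genes and -0.05 over all genes. None of the 35 differences reached 1 on the log2 scale, with standard errors of 0.13 to 0.45. The 95% interval of limma lay above 0 for 14 genes, below 0 for 1 and on both sides of 0 for 20. The count of 14 at an unadjusted p under 0.05 was not stable: it was 3 with an offset of 1 in place of 16 and 9 without the dimmest 25% or 50% of probe sets. It was 6 without control replicate 3, 7 without control replicate 2, 8 without knockout replicate 3 and 9 without knockout replicate 1. With median centring it was 20, and in the remaining settings 10 to 16. Of all 45037 probe sets, 7067 were under 0.05 in either direction, 6069 with an offset of 1 and 8749 with median centring.

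**Figure D1:**
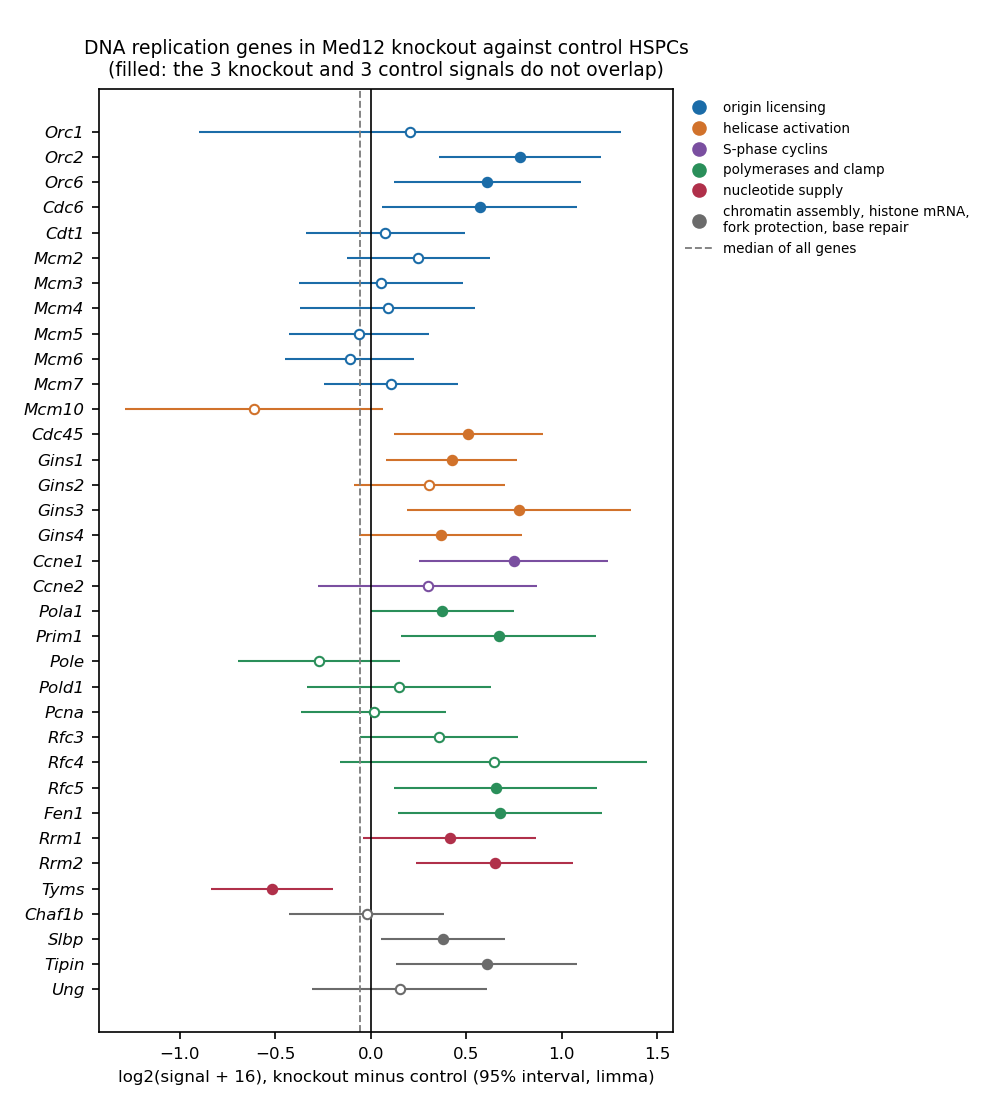
Log2 difference (knockout minus control, on the log2(signal + 16) scale) of the 35 replication genes with limma's 95% interval, coloured by role; filled points mark genes whose 3 knockout and 3 control signals do not overlap. Most points lie to the right of 0 and of the dashed median of all genes at -0.05, while Mcm3 to Mcm7, Pcna, Cdt1 and Chaf1b lie close to 0 and Mcm10, Tyms and Pole lie to the left.

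Brighter genes as a whole also had slightly higher signals in knockouts. Among the 2095 genes at or above the median level of the replication genes, a group chosen after the values were seen, the median log2 difference was 0.08. Of these brighter genes 59% had a higher log2 mean in knockouts and 20.8% had all knockout signals above all control signals. At an unadjusted p of limma under 0.05, 312 of the 2095 were higher and 168 lower. The median log2(signal + 16) level of the 35 replication genes was 9.42, 9.14 and 9.002 for the controls and 9.67, 9.64 and 9.75 for the knockouts. These groups did not overlap, while the median over all genes went the other way, with 6.09 to 6.25 for controls against 5.80 to 5.99 for knockouts. The median level of the brighter genes was 10.15 to 10.18 for controls and 10.21 to 10.31 for knockouts, higher in knockouts and without overlap too.

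Among the origin licensing genes, Orc2, Orc6 and Cdc6 had higher signals on every knockout array, while signals of the MCM ring, by the probe sets that represent it, lay close to those of controls; the contrast between them was not tested. Of 11 genes 9 had a higher log2 mean, with a median difference of 0.11. Orc2, a core ORC subunit, had signals of 241, 226.9 and 222.4 in controls and 327.1, 417.8 and 490.5 in knockouts. Every knockout array lay above every control array, and the log2 difference of 0.78 (SE 0.17; limma's adjusted p = 0.117) was the highest of the 35. Orc6, the smallest ORC subunit, had 356.6, 368 and 234.7 in controls and 483.6, 524.9 and 455.9 in knockouts, again without overlap (log2 0.61; SE 0.20; adjusted p = 0.227). Cdc6, the ATPase that helps ORC load the MCM ring, had 500.5, 472 and 448.7 in controls and 888.6, 530.8 and 760.6 in knockouts. Its groups did not overlap, although knockout replicate 2 lay close to the controls (log2 0.57; SE 0.21; adjusted p = 0.269). Cdt1, which brings the ring to ORC and is destroyed in S phase, was at 0.08 (95% interval -0.34 to 0.49). Orc1, the ORC subunit that is itself regulated in the cell cycle, ranged from 31.1 to 123.5 on control arrays and from 46 to 102.8 on knockout arrays, and its difference of 0.21 has an interval of -0.90 to 1.31.

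The 6 genes of the MCM ring had a median log2 difference of 0.07, and in each of them the groups overlapped. The differences were 0.25 for Mcm2, 0.05 for Mcm3, 0.09 for Mcm4, -0.06 for Mcm5, -0.11 for Mcm6 and 0.11 for Mcm7. Their 95% intervals lie between -0.45, the lower bound of Mcm6, and 0.62, the upper bound of Mcm2. Mcm6 had 2674.2, 2439 and 3105.3 in controls and 2470.5, 2441.3 and 2662 in knockouts, values that interleave. All 6 genes are represented here by probe sets with the suffix x_at or s_at, explained further on. By their highest probe set without these suffixes, the 6 had a median of 0.27 (-0.25 to 0.90), 4 were higher and 3 had all knockout signals above all controls, with 0.207 as the lowest adjusted p of limma. The 3 were Mcm5, Mcm4 (803.5, 664.8 and 669.2 in controls and 882.1, 1154.6 and 966.9 in knockouts; log2 0.48) and Mcm6 (991.1, 1017.5 and 1173.9 against 1203.1, 1240 and 1289.7; log2 0.23).

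Promoters of these genes are shown because E2F sites are the textbook feature that replication genes share. Windows of 300 bases, from 250 before to 50 after the annotated start, were found in RefSeq's GRCm38.p6 table for 29 of the 36 genes, in 32 windows (Ccne2, Pole, Gins1, Gins2, Gins4, Tipin and Mcm4 were not matched). The letters TTTGGCGC, TTTCCCGC, TTTGCCGC and TTTCGCGC were searched on both strands. One or more occurred in 11 of 32 windows, or 34.4%, against 2.26% of all 32851 windows in the table. They occurred in 24.1% of the windows of other replication genes and 11.5% of those of mitotic genes, lists described further on. The CCAAT box, another common promoter element, occurred in 65.6% of the replication windows and 37.4% of all. Its share was 46.6% for the other replication genes and, higher than here, 80.8% for the mitotic genes. The letters TTTGAA, found in the cell cycle homology region of many mitotic promoters, occurred in 12.5% and 17.9%, and in 69.2% of the windows of mitotic genes. The stretches below run 5′ to 3′ on the gene's strand and end before the start site. They cover the 8 genes with a match there, and capitals mark the E2F-type letters on either strand.
Mcm5, chr8:75109331-75109392, plus strand: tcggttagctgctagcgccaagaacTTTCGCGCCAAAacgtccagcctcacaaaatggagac
Mcm6, chr1:128359720-128359840, minus strand: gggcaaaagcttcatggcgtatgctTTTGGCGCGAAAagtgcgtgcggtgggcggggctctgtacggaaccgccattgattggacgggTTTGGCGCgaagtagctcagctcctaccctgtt
Mcm7, chr5:138172016-138172073, minus strand: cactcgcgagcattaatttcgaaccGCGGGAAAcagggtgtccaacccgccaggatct
Orc1, chr4:108579402-108579453, plus strand: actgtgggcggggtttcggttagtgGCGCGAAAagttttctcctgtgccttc
Cdc6, chr11:98907988-98908045, plus strand: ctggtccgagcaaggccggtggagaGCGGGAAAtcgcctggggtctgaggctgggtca
Gins3, chr8:95633493-95633550, plus strand: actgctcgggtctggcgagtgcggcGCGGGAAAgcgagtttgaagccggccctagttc
Pola1, chrX:93632261-93632318, minus strand: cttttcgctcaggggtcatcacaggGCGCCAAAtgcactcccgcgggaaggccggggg
Rfc3, chr5:151651209-151651243, minus strand: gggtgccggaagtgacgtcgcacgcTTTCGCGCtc

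In Mcm5 and in the first site of Mcm6, 2 matches on opposite strands overlap, which is why their capitals run longer than 8 letters. In Mcm3, Cdt1 and Pold1 the letters occurred only after the start site. The 11 measured genes with a match had a median log2 difference of 0.15 (-0.11 to 0.78), and the 17 measured genes whose windows lacked these letters had 0.51 (-0.61 to 0.78). These ranges overlap almost wholly, the split was not tested, and a match is a description of the window, not of binding. The split also depends on the probe sets used. Of the genes with a match, Mcm3, Mcm5, Mcm6, Mcm7 and Pold1 were read by x_at or s_at sets. By their highest set without these suffixes they were at -0.22, 0.90, 0.23, -0.25 and 0.99. Of those without a match, the same holds for Mcm2, Ccne1, Rfc4, Fen1 and Rrm2, which were then at 0.32, 0.93, 0.49, 0.81 and 0.84.

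Helicase activation genes were higher in 5 of 6 cases, with a median log2 difference of 0.39. Gins3, a subunit of the GINS complex that completes the helicase, had signals of 58.1, 63.5 and 47.6 in controls and 80.3, 98.7 and 154.2 in knockouts. The groups were separate, with knockout replicate 3 the highest (log2 0.78; SE 0.24; adjusted p = 0.206). Cdc45, the partner of GINS in the active helicase, had 96.7, 78.4 and 83.6 in controls and 125.4, 110.8 and 154.5 in knockouts (log2 0.51; SE 0.16; adjusted p = 0.210), also without overlap. Gins1 had 477.7, 387.7 and 375.2 in controls and 574.1, 524.2 and 573.2 in knockouts, with the knockout arrays close together and above the controls (log2 0.42; SE 0.14; adjusted p = 0.234). Gins4 was at 0.37 and Gins2 at 0.31, and the groups of Gins4 were separate too. Mcm10, which helps the helicase start moving, was the exception at -0.61 (95% interval -1.29 to 0.07), with 482.6, 376.6 and 615.9 in controls and 405.7, 328.8 and 223.2 in knockouts. Its groups overlapped, and its other probe sets, given further on, had the opposite sign.

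Cyclin E drives the kinase Cdk2 at the start of S phase. Ccne1 had signals of 154.8, 134.5 and 91 in controls and 202.1, 232.1 and 224.4 in knockouts. The knockout arrays lay together above all controls (log2 0.75; SE 0.20; adjusted p = 0.166). Ccne2 had 136.4, 118.8 and 84.5 in controls and 162.3, 105.4 and 160.9 in knockouts, and these groups overlapped (log2 0.30; SE 0.23; adjusted p = 0.616).

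**Figure D2:**
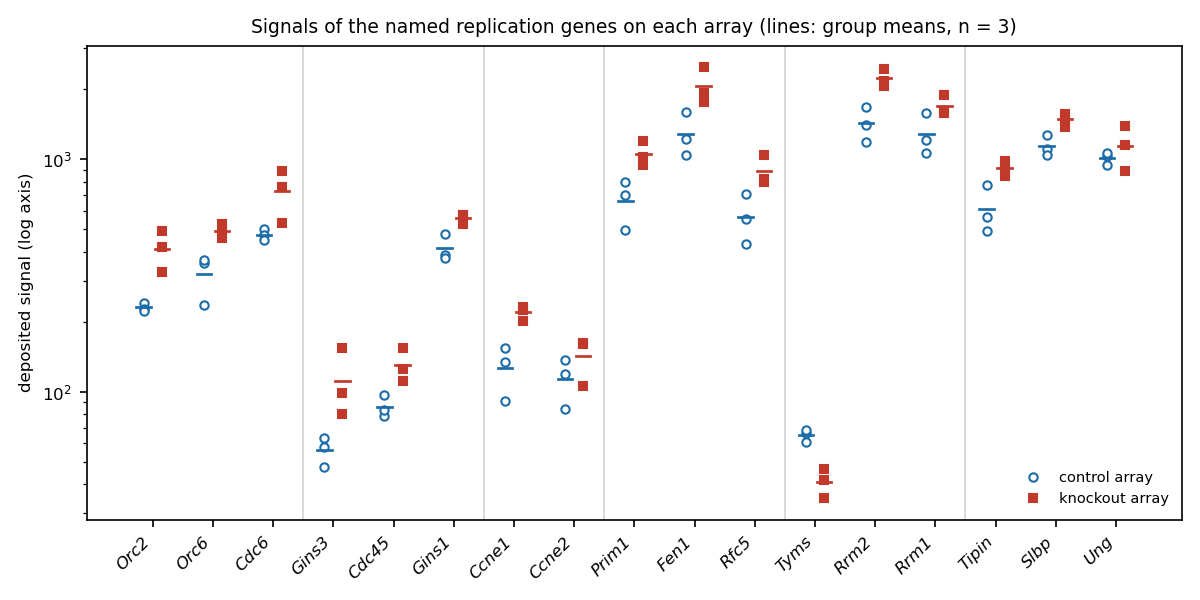
Deposited signals (log axis) on each control and knockout array for the genes of smallest p in each role, with lines at the group means (n = 3); levels are not comparable between genes, since each is read by its own probes. In 14 of the 17 genes the 3 knockout squares lie wholly above the 3 control circles, in Tyms they lie wholly below, and in Ccne2 and Ung the groups overlap. Picking by p favours such separation: over all 35 genes 16 had all knockout signals above, against 9.85% of all genes and 20.8% of the brighter genes.

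Among polymerases, clamp and clamp loader, 8 of 9 genes had a higher log2 mean, with a median of 0.38. Prim1, the catalytic primase subunit, had signals of 697.4, 793.8 and 496.7 in controls and 938.4, 1190.3 and 1017.5 in knockouts (log2 0.67; SE 0.21; adjusted p = 0.210). Fen1, the nuclease that trims Okazaki fragments, had 1597.1, 1039.8 and 1224.1 in controls and 1752.8, 2485.7 and 1927.3 in knockouts (log2 0.68; SE 0.22; adjusted p = 0.222). Rfc5, a clamp loader subunit, had 706, 549.7 and 433 in controls and 796.7, 819 and 1039.4 in knockouts (log2 0.66; SE 0.22; adjusted p = 0.233). In all 3 genes the knockout arrays lay above the control arrays, as they did for Pola1, the polymerase that extends primers (log2 0.38). The other loader subunits were at 0.64 (Rfc4) and 0.36 (Rfc3), with overlapping groups. The clamp gene Pcna had 2258.2, 2721.8 and 2727.7 in controls and 2389.9, 2998.9 and 2420.2 in knockouts. Its difference was 0.02, with a 95% interval of -0.36 to 0.40, and its arrays interleave. The leading strand polymerase gene Pole was at -0.27 (-0.69 to 0.15) and the lagging strand polymerase gene Pold1 at 0.15 (-0.33 to 0.63). Pold1 was at 0.34 without control replicate 1 and at 0.020 without control replicate 2, and Rfc4 was at 0.36 without knockout replicate 3.

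Of the nucleotide supply genes, Rrm2 and Rrm1 were higher. Tyms, whose 4 probe sets all had group means under 100, was lower by the set that represents it. Rrm2, the subunit of ribonucleotide reductase that is made in S phase, had signals of 1681.9, 1402.3 and 1188.8 in controls and 2175.2, 2059.6 and 2442.8 in knockouts. The groups were well separated (log2 0.65; SE 0.17; adjusted p = 0.154). The mean of its 3 probe sets was the only value of the 35 genes to pass in any of the 18 other settings tried (log2 0.86; adjusted p = 0.0372), and over those settings its adjusted p ran from 0.0372 to 0.392. With probe sets averaged, the adjustment ran over 18193 genes, of which 507 passed. Rrm1, the large subunit, had 1574.7, 1205 and 1056.5 in controls and 1575.4, 1605.8 and 1886.1 in knockouts. Control replicate 1 almost reached the lowest knockout array (log2 0.41; SE 0.19; adjusted p = 0.360). Tyms, thymidylate synthase, had dim signals of 66.1, 60.9 and 68.7 in controls and 46.3, 34.9 and 41.8 in knockouts. It was the only one of the 35 genes with all knockout arrays below all controls (log2 -0.51; SE 0.13; adjusted p = 0.149), and its 4 probe sets had both signs.

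Genes that act behind or beside the fork were higher in 3 of 4 cases, with a median log2 difference of 0.26. Tipin, part of the complex that protects stalled forks, had signals of 770.1, 560.7 and 491.1 in controls and 929.7, 976.8 and 847 in knockouts, without overlap (log2 0.61; SE 0.19; adjusted p = 0.217). Slbp, which binds and stabilises replication-dependent histone mRNA, had 1101.3, 1267.6 and 1043.2 in controls and 1493, 1374.9 and 1569.4 in knockouts, likewise separate (log2 0.38; SE 0.13; adjusted p = 0.256). The uracil glycosylase gene Ung had 1030.1, 1059.1 and 938.4 in controls and 889.3, 1146 and 1383 in knockouts, which overlap (log2 0.15; SE 0.19; adjusted p = 0.767). The histone chaperone gene Chaf1b was at -0.02 (95% interval -0.43 to 0.38).

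The probe sets of a gene did not always tell the same story. Of 26 genes read by more than 1 probe set, 14 had a single sign over their probe sets and 12 had both. The suffix x_at or s_at marks probe sets with probes that also match other transcripts, and it applies to the sets that represent each of Mcm2 to Mcm7. The 17 such probe sets of replication genes had a median log2 difference of 0.11, and the other 59 had 0.38. The 17 were also brighter, with a median control mean of 1343 against 320, and the part of brightness in this contrast was not tested. The same classes over all genes had median differences of -0.02 and -0.06. Mcm5 showed the widest contrast of this kind: its x_at set was at -0.06, while 1415945_at had 526.2, 370.7 and 283.7 in controls and 614.2, 653.2 and 955.9 in knockouts (log2 0.90; SE 0.28; adjusted p = 0.207). The latter set was separate between groups and the former was not. The other Mcm5 set was at 1.21 with overlapping groups. For Pold1 the x_at set was at 0.15 and 1448187_at at 0.99, with 189.4, 154.2 and 113.8 in controls and 474.3, 232.5 and 274.2 in knockouts. For Mcm6 the sets were at -0.11, 0.23 and, very dim, -0.76.

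Rrm2 and Orc2 were among the 14 genes higher by every probe set. The 3 of Rrm2 were at 1.10, 0.84 and 0.65, and all separated the groups. The lowest adjusted p of all 76 probe sets, 0.0798, belonged to 1448226_at of Rrm2, with 892.6, 758.9 and 780.5 in controls and 1326, 1389.3 and 1688 in knockouts. The 3 sets of Orc2 were at 0.78, 1.08 and 0.58, the last with overlapping groups. Mcm10 went the other way between sets, at -0.61 for the set that represents it and at 0.45 and 0.66 for the others. The second set of Orc1 was at -1.23, with 133, 79.8 and 126.7 in controls and 45.1, 78.5 and 11.1 in knockouts, against 0.21 for the first. Of the probe sets with both group means under 100, 7 of 15 were higher, and of the others 53 of 61. Taking for each gene its highest set without the suffixes x_at and s_at, a choice made after the data were seen, left 29 of 35 genes higher. Their median was 0.38, and 42.2% of all genes were higher in this setting. In 20 of the 35 all knockout signals lay above all controls, against 9.89% of all genes, and 0 passed the threshold.

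**Figure D3:**
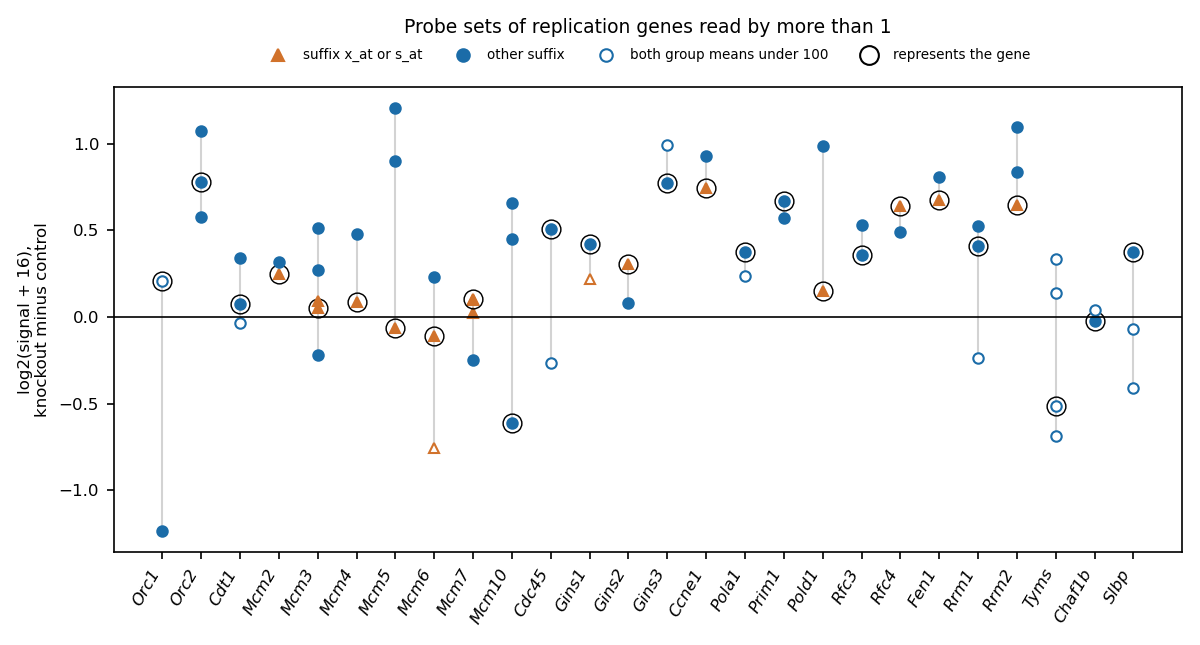
Log2 difference (knockout minus control) of every probe set of the 26 genes read by more than 1, with triangles for the suffixes x_at and s_at, open symbols where both group means are under 100, and a ring around the set that represents the gene. The 3 sets of Rrm2 and of Orc2 all lie above 0, whereas the sets of Mcm5, Mcm10, Orc1 and Tyms lie on both sides of it.

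Further replication genes that were not in the list gave a like picture on the same arrays. They too were chosen with earlier results of these data known, so they are no independent support. Of 53 such genes analysed here, 46 had a higher log2 mean in knockouts, against 42.2% of all genes and 59% of the brighter genes. Their median difference was 0.39. None passed limma's test, against 0.989% of all genes, and 16 were higher and 3 lower at an unadjusted p under 0.05. The shares of all genes were 7.83% and 10.3%, and of the 2095 brighter genes 312 were higher and 168 lower. In 17 all knockout signals lay above all controls and in 3 below, against 9.85% and 13.5% of all genes and, for the former, 20.8% of the brighter genes. Mtbp, a factor in origin firing, had 147, 90.6 and 95.4 in controls and 294, 262.9 and 188.3 in knockouts (log2 1.06; SE 0.24; adjusted p = 0.124). Asf1b, a histone chaperone of proliferating cells, was at 1.14, Pole2, a polymerase epsilon subunit, at 0.997, the helicase gene Mcm8 at 0.83 and Rnaseh2b, of the enzyme that removes ribonucleotides from DNA, at 0.53. In these 5 genes, named for their small p, the knockout arrays lay above all control arrays. Pold4, the small accessory subunit of polymerase delta, had 509.4, 525.3 and 679.8 in controls and 303.7, 304.9 and 193.1 in knockouts. It lay lower on every knockout array (log2 -1.07; SE 0.22) and had the lowest adjusted p of the 53, 0.107. As a list that is tied to a later phase of the cycle, 28 mitotic genes had a median of 0.73. Of these, 28 of 28 were higher, against 42.2% of all genes and 59% of the brighter genes. None passed the threshold, against 0.989% of all genes. The difference of this list from the replication genes was not tested.

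**Figure D4:**
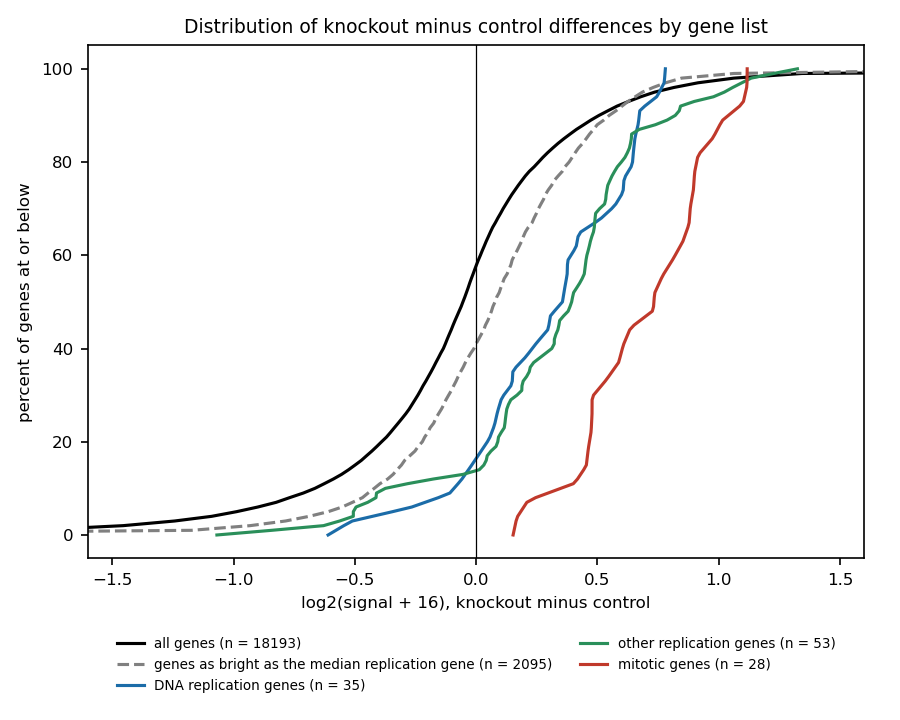
Share of genes (percent) at or below each log2 difference (knockout minus control) for the 35 replication genes, 53 other replication genes, 28 mitotic genes, the 2095 brighter genes and all 18193 genes. The curves of both replication lists (medians 0.36 and 0.39) lie to the right of those of all genes (-0.05) and of the brighter genes (0.08) over most of their range, and that of the mitotic genes (0.73) lies further right.

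Markers of several cell types that a sorted progenitor population can hold differed between the groups. Over all genes 0.352% passed limma's test as higher and 0.638% as lower. All 7 measured erythroid markers had higher log2 means in knockouts and 4 passed, their signals summing to 3194.7 to 3833.3 on control arrays against 6926 to 10670.4 on knockout arrays. Of these, Hba-a1, a globin gene of maturing red cells, was under 16 on every array. All 7 granulocyte-monocyte markers were lower and 6 passed (8135 to 15253.7 against 623.4 to 1497.9), and all 6 early lymphoid markers were lower and 4 passed (3268.1 to 4090.2 against 97.3 to 216.7). The 4 megakaryocyte markers measured summed to 2890.9 to 4234.3 and 4205.6 to 5119.6, which overlap. Of them 1 passed (Itga2b, log2 1.56), while Pf4, the brightest, was at 0.098. The 6 stem cell markers summed to 1014.8 to 2059 and 705.6 to 812.7, with 4 lower, of which Hlf passed, and 2 higher. Without Hlf the other 5 summed to 553.1 to 1126.2 and 566.4 to 675.7, which overlap. No measured marker was at 0 on any array. In bulk RNA, more cells in S phase and more replication RNA per cell cannot be told apart, and the part of these markers in the replication gene values was not tested.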

How the data were processed

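The authors deposited 1 linear signal intensity per probe set and array. Per the labels' protocols, 5 ng of RNA was amplified with the NuGEN Ovation system. The submitters' processing notes name RMA, but the deposited intensities run from 0 to 11133.8 with a 2% trimmed mean of 150 on every array, and RMA gives log2 values, so how they were made is not known here. Of 45101 probe sets, 64 controls were left out. The 2016 platform annotation gave 34945 of the rest 1 symbol. limma 3.58.1 (R 4.3.3; lmFit, eBayes, two-sided) was fitted to log2(signal + 16) of 45037 probe sets, with Benjamini-Hochberg adjustment over all of them, and tested on simulated data. Values per array are given for the 3 genes of smallest p in each role and for further genes chosen after their values were seen; the 6 other replication genes of smallest p are named. The members and lists were chosen with earlier results of these data known. Same-numbered arrays of both groups had deviations correlated at 0.019, 0.019 and 0.0019, and differently numbered ones at -0.057 to 0.034. No pairing by number was seen, but this check cannot exclude one, and whether same-numbered arrays share a source is not known. Alternatives were other offsets, priors, array weights, normalizations, filters, probe set rules, a replicate block and leaving out each array.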

Additional observations from a re-analysis of the deposited data

How the results depend on the processing

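Of the 35 replication genes, 23 kept their sign under all 18 alternatives and 12 did not, and 1 passed limma's threshold under any of them. The number with a higher log2 mean was 26 to 30 without any 1 array, and their median 0.28 to 0.43; only median centring moved that median beyond the spread between arrays, to 0.63, as the median of all genes moved to 0.22. The number with all knockout signals above all controls was 17 to 21 without any 1 array, where 13.2% to 14.6% of all genes were so. It was 22 with median centring (27.6% of all genes) and 13 to 20 otherwise (9.36% to 15% of all genes). With a gene's probe sets averaged, 1 of the 35 replication genes (Rrm2, 0.86) and 1 of the 53 others (Dbf4) passed as higher. In that setting 507 of all 18193 genes passed, in either direction. With median centring 1 of the 53 others passed (Mtbp), where 693 of 45037 probe sets passed. The replicate block left 0 probe sets called, higher or lower, of 99 and 244 (limma; 6752 at an unadjusted p under 0.05), and no replication gene passed with it or without it. Counts of all probe sets called higher and lower were 4 and 38 with an offset of 1, and 205 and 510, or 223 and 533, without the dimmest 25% or 50%. They were 150 higher with the trended prior, 431 higher with median centring, and 143 and 157 lower with quantile and loess normalization. Without any 1 array they were 0 to 2 higher and 0 to 8 lower. With median centring Mcm5 was at 0.21, Mcm6 at 0.16, Pole at 0.0025 and Chaf1b at 0.25, and with loess Mcm3 at -0.012 and Pcna at -0.045. With probe sets averaged Orc1 was at -0.51, Mcm5 at 0.68, Mcm7 at -0.0046, Mcm10 at 0.17, Chaf1b at 0.010 and Slbp at -0.034. Without x_at and s_at sets, a setting added after the data were seen, Mcm3 was at -0.22, Mcm5 at 0.90, Mcm6 at 0.23 and Mcm7 at -0.25. Over the settings that leave out 1 array, Mcm3 ran from -0.051 to 0.21 and Mcm4 from -0.00057 to 0.26 (turned without control replicate 1), Orc1 from -0.16 to 0.63 (control 2), Pcna from -0.089 to 0.074 (control 1, knockout 2), Cdt1 from -0.028 to 0.19 (control 3, knockout 3), Mcm5 from -0.14 to 0.027 (control 3, knockout 1) and Chaf1b from -0.16 to 0.089 (control 2, knockouts 2 and 3). The causes were not tested.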
